A study of Mus musculus with 127 samples.

Results

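The 40 genes described here are the serine/arginine-rich (SR) splicing factors, the heterogeneous nuclear ribonucleoproteins (hnRNPs) and the subunits of the SF3a and SF3b complexes in single mouse bone marrow cells. They were chosen by symbol, as every row of the expression table whose name starts with Srsf, Hnrnp, Sf3a or Sf3b. This gave 11 Srsf, 20 Hnrnp, 3 Sf3a and 6 Sf3b genes of 23946 genes in all. The rule uses no expression value. The study profiled 127 single cells from wild-type C57BL/6 mice, with no transgene or treatment named in the labels. All cells came from marrow in which cells bearing CD117, the receptor encoded by Kit, had been concentrated on beads, and were sorted into a population that the labels call GMP-P, in 3 gates. The gate called Ly6g high held 46 cells, Ly6g low held 41 and CD11b+ held 40, and the cell type label names CD11b in all 3 gates. The authors also assigned every cell to 1 of 11 classes, among them HSCP-2, Mono, Gran-1 and Myelo-1 to Myelo-4. The comparisons below ask how transcripts for splicing and RNA packaging stand in these classes and gates, beside the number of genes detected in each cell.

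SR proteins bind short sequences in exons through RNA recognition motifs and recruit the splicing machinery through a domain rich in arginine and serine. The hnRNPs coat nascent transcripts, and many of them oppose the use of nearby splice sites, while others act in export, stability or translation. SF3a and SF3b are parts of the U2 small nuclear ribonucleoprotein, which recognises the branch point of an intron. As granulocytes mature they leave the cell cycle, condense their nuclei and fill with granule proteins made earlier, and regulated intron retention is a known feature of late granulocytes.

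No animal was named for any cell, so each gate was 1 sample. There is no replicate check, no test was made and no p-value is given, and each spread below is a spread over cells. The 2 Ly6g gates share 18 of the position codes in the cell names and the CD11b+ cell names carry another prefix, so gate and any difference between runs cannot be told apart. Values are TPM, transcripts scaled to a fixed total per cell, which are also scaled for transcript length and can be compared between genes. A gene was called detected in a cell at 1 TPM or more. TPM keeps no read depth, so the number of genes detected is given as a stand-in for how much of a cell was read. Its median was 1695 in Ly6g high cells (range 966 to 4679), 2521 in Ly6g low cells (1159 to 5058) and 2464.5 in CD11b+ cells (821 to 5173). Kit was detected in 13.04% of Ly6g high, 21.95% of Ly6g low and 47.5% of CD11b+ cells. Itgam, which encodes CD11b, was detected in 89.1%, 90.2% and 67.5% of these cells, and in 0 of the 7 HSCP-2 cells. Itgam was also undetected in the single Multi-Lin, MDP and Eryth cells. It was detected in 1 of 4 Gran-1, 2 of 5 Mono and 4 of 6 Gran-2 cells. In the Myelo classes 98 of 102 cells detected it. The exact binomial interval of the HSCP-2 share of cells reaches 40.96%. Lack of Itgam RNA was thus not particular to HSCP-2 cells.

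The most abundant members were Srsf2, with a mean over all cells of 724 TPM, Hnrnpk with 474 TPM and Hnrnpf with 427 TPM. Together these 3 made up 35.5% of all member TPM, and the 10 highest members made up 68.1%. The other 7 of these were Srsf3, Hnrnpa2b1, Hnrnpa1, Srsf7, Hnrnpc, Hnrnpu and Srsf5, at means of 289 down to 138 TPM. Of the 40 members, 15 had a mean of 100 TPM or more and 5 had a mean under 10 TPM. Detection was partial for most: 23 members were detected in over 50% of the cells and 9 in over 75%. Srsf12 was listed at 0 in every cell, for which the exact 95% binomial interval of the share of cells reaches 2.86%. Sf3a2 was detected in 8 of 127 cells and never above 9.40 TPM. Zeros were common even among the highest members, since Srsf2 was listed at 0 in 11 cells, Hnrnpk in 14 and Hnrnpa1 in 57. A zero in 1 cell therefore does not show that the gene was silent there. Several members share exon sequence on the opposite strand with a neighbour in the annotation, such as Srsf2 with Mettl23 and Mfsd11, Hnrnpk with Rmi1 and Hnrnpu with Cox20. Strand use in the counting is not stated, so reads of such pairs cannot be told apart. Members with near-identical copies, such as Hnrnpa1 with its many processed pseudogenes, have uncertain levels for a similar reason.

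The promoters of 3 members are shown because these genes differed in course between Myelo-2 and Myelo-4 in the Ly6g high gate, described below. Hnrnpa1 was undetected in these Myelo-4 cells, and 10 of 27 Myelo-2 cells detected it. Srsf5 had a higher mean in Myelo-4, but under 2-fold without the highest cell of each class. Hnrnpl was at the same level in both. Each sequence is the 250 bases before the annotated start in RefSeq (build GRCm38.p6), read 5′ to 3′ on the gene's strand. Capitals mark the core letters of 3 promoter elements on either strand. These are CCAAT, with its reverse complement, for the CCAAT box, GGGCGG likewise for the GC box, and TATAAA likewise for the TATA box; no searched word lies within another.
Hnrnpa1, chr15:103240147-103240396, + strand: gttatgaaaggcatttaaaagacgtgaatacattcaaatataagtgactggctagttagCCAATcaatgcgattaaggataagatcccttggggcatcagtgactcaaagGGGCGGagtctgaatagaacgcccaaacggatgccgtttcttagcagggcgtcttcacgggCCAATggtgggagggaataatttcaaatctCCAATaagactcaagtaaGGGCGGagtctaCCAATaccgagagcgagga
Srsf5, chr12:80945249-80945498, + strand: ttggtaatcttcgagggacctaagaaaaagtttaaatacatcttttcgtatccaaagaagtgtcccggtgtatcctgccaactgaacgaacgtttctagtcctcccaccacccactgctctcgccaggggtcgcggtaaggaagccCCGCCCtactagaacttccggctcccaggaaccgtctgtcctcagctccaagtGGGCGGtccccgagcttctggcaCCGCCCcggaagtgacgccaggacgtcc
Hnrnpl, chr7:28810640-28810889, + strand: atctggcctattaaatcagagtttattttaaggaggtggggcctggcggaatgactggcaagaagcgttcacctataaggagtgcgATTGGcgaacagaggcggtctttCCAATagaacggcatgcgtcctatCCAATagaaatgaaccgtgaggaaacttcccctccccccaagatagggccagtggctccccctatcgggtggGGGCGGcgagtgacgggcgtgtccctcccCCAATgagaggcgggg
The Hnrnpa1 window held CCAAT 4 times and GGGCGG 2 times, the Srsf5 window held GGGCGG 3 times and no CCAAT, and the Hnrnpl window held CCAAT 4 times and GGGCGG 1 time. None of the 3 windows held TATAAA. RefSeq promoters were matched for 36 of the 40 members, with 49 promoters in all. GGGCGG was found on either strand in 75.5% of the member promoters against 32.7% of all 32851 promoters of that length. CCAAT stood in 46.9% against 33.8%, and TATAAA in 8.16% against 12.4%. Median GC content was 64% in the member promoters and 52.4% in all promoters, so the letters GGGCGG had more chance of occurring in the former. These matches describe letters and do not show binding.

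The number of members detected in a cell followed the number of genes detected. Across all 127 cells Spearman's rho between the 2 numbers was 0.92 and Pearson's r was 0.89, and rho was 0.88 within Ly6g high, 0.93 within Ly6g low, 0.92 within CD11b+ and 0.77 within the 72 Myelo-2 cells. Both numbers come from the same cell and library, so this is a description only. Mono cells detected the most members, with a median of 35 of 40 (33 to 36, 5 cells) beside 4679 genes. Gran-2 cells detected 34 (27 to 37, 6 cells) beside 4315.5 genes. Myelo-2 cells lay in the middle at 22 members (9 to 35, 72 cells) and 2239.5 genes. The fewest members were found in Myelo-3 cells, at 10 (8 to 19, 9 cells) beside 1282 genes, and in Myelo-4 cells, at 9.5 (4 to 18, 16 cells) beside 1409 genes.

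**Figure D1:**
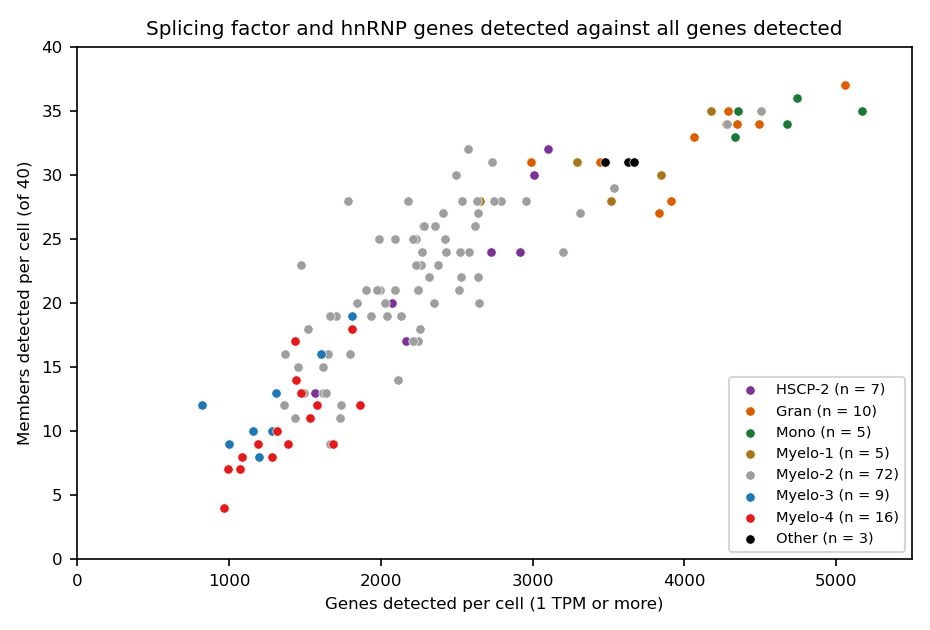
Each point is 1 cell, with the number of genes detected at 1 TPM or more on the x axis and the number of the 40 splicing factor and hnRNP genes detected on the y axis, coloured by deposited class. Over all cells members detected climb with genes detected (rho 0.92), and the Myelo-3 and Myelo-4 cells sit at the lower left, with medians of 10 and 9.5 members.

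Per 1000 genes detected, most classes were close to one another. The median was 9.86 members per 1000 genes in Myelo-2, 8.98 in Myelo-3, 8.80 in HSCP-2, 8.48 in Gran-1 and 8.39 in Myelo-1. It was 7.69 in Gran-2 and 7.59 in Mono. Myelo-4 had the lowest median of these classes, 7.27 (4.14 to 11.9). The 3 gates had medians of 8.87, 8.89 and 8.99 and did not differ beyond the spread over their cells.

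As a share of a cell's TPM, the members were highest in the HSCP-2 cells. Their median share was 1.59% (0.432 to 2.35). It was 1.09% (0.862 to 1.26) in Mono, 0.889% (0.655 to 0.997) in Gran-2, 0.647% (0.378 to 0.778) in Myelo-1 and 0.567% (0.292 to 1.04) in Gran-1. Myelo-2 cells stood lower, at 0.298% (0.0826 to 0.759). The lowest medians were 0.152% (0.0220 to 0.790) in Myelo-3 and 0.135% (0.0145 to 0.533) in Myelo-4. The single cells of the classes Eryth, Multi-Lin and MDP had shares of 2.04%, 0.939% and 0.701%. Granule transcripts take up much of the TPM in the Myelo classes: the 45 genes of the primary granule, specific granule and late neutrophil lists made up a median of 57.99% of TPM in Myelo-2, 60.7% in Myelo-3 and Myelo-4 each, but 0.734% in HSCP-2. Outside these genes, the members' share was 1.60% in HSCP-2, 1.14% in Mono, 1.05% in Gran-2, 0.886% in Myelo-1, 0.740% in Myelo-2 and 0.637% in Gran-1 (0.364 to 1.16, 4 cells). Gran-1 thus stood above Myelo-2 by its share of all TPM and below it on this scale. It remained lowest in Myelo-4, at 0.374%, and Myelo-3, at 0.331%. The distance between HSCP-2 and Myelo-2 was smaller on this scale, while Myelo-2 stayed above Myelo-3 and Myelo-4. Ranges of neighbouring classes overlapped on both scales. The classes may have been made from these same values by the authors, so these orders are descriptions.

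Among the SR proteins, Srsf2, which activates splicing through exonic enhancers, had its highest level in HSCP-2 cells. There it ranged from 4.03 to 9377 TPM with a median of 3546 TPM. In Mono cells it ranged from 652 to 2612 TPM (median 1009), and in Myelo-2 cells from 0 to 2324 TPM (median 209). Myelo-4 cells had a median of 1.22 TPM but reached 3433 TPM in 1 cell of the CD11b+ gate, which alone held 58.4% of that class's Srsf2. Without that cell the Myelo-4 mean moved from 367 to 163 TPM. Srsf2 was thus found in all 7 HSCP-2 cells and in 8 of 16 Myelo-4 cells. Srsf3, a small SR protein that also links splicing to export, had a median of 653 TPM in HSCP-2 (0.95 to 1566), 638 in Mono (344 to 923) and 177 in Myelo-2 (0 to 1568). Its median in Myelo-4 was 0.14 TPM (0 to 235), with 4 of 16 cells detecting it. Srsf7, a close relative of Srsf3, was detected in 47 of 72 Myelo-2 cells (median 32.5 TPM) and in 2 of 16 Myelo-4 cells (highest 25.1 TPM). In Myelo-3 it was found in 2 of 9 cells, both at such levels that the class mean was 859 TPM. Srsf10, which acts as a general repressor of splicing when dephosphorylated, was detected in 32 of 72 Myelo-2 cells, 1 of 9 Myelo-3 cells and 0 of 16 Myelo-4 cells. Srsf5 took another course. Its medians were 133 TPM in HSCP-2 (0 to 975), 15.7 in Myelo-2 (0 to 776), 30.4 in Myelo-3 (0 to 336) and 42.4 in Myelo-4 (0 to 1550), and 10 of 16 Myelo-4 cells detected it.

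Hnrnpk, a KH domain protein that binds C-rich sequences, led the hnRNPs. Its median was 1642 TPM in HSCP-2 (3.87 to 4032), 1163 in Mono (723 to 1887), 194 in Myelo-2 (0 to 1476) and 1.14 in Myelo-4 (0 to 1749). In Myelo-3 no cell exceeded 3.38 TPM. Hnrnpf, which binds G-rich tracts, had a median of 1034 TPM in Mono (81.8 to 2269), 293 in Myelo-2 (0 to 1337) and 27.6 in Myelo-4 (0 to 1079). Hnrnpa2b1 was found in 69 of 72 Myelo-2 cells, with a median of 203 TPM (0 to 1039), and in 8 of 16 Myelo-4 cells, with a median of 0.83 TPM (0 to 388). Few Myelo-3 or Myelo-4 cells carried Hnrnpa1, a repressor of exon inclusion that counteracts SR proteins. All 5 Mono cells carried it at 523 to 2386 TPM. It was detected in 38 of 72 Myelo-2 cells, 1 of 16 Myelo-4 cells (at 180 TPM) and 0 of 9 Myelo-3 cells, for which the exact interval reaches 33.6%. Hnrnpc, which binds uridine tracts and guards against the use of cryptic exons, was detected in 55 of 72 Myelo-2 cells and 4 of 16 Myelo-4 cells. Hnrnpu, also called scaffold attachment factor A, was detected in 63 of 72 Myelo-2, 7 of 9 Myelo-3 and 9 of 16 Myelo-4 cells. Its Myelo-3 mean of 218 TPM rested on 1 CD11b+ cell at 1894 TPM and was 8.14 TPM without it.

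**Figure D2:**
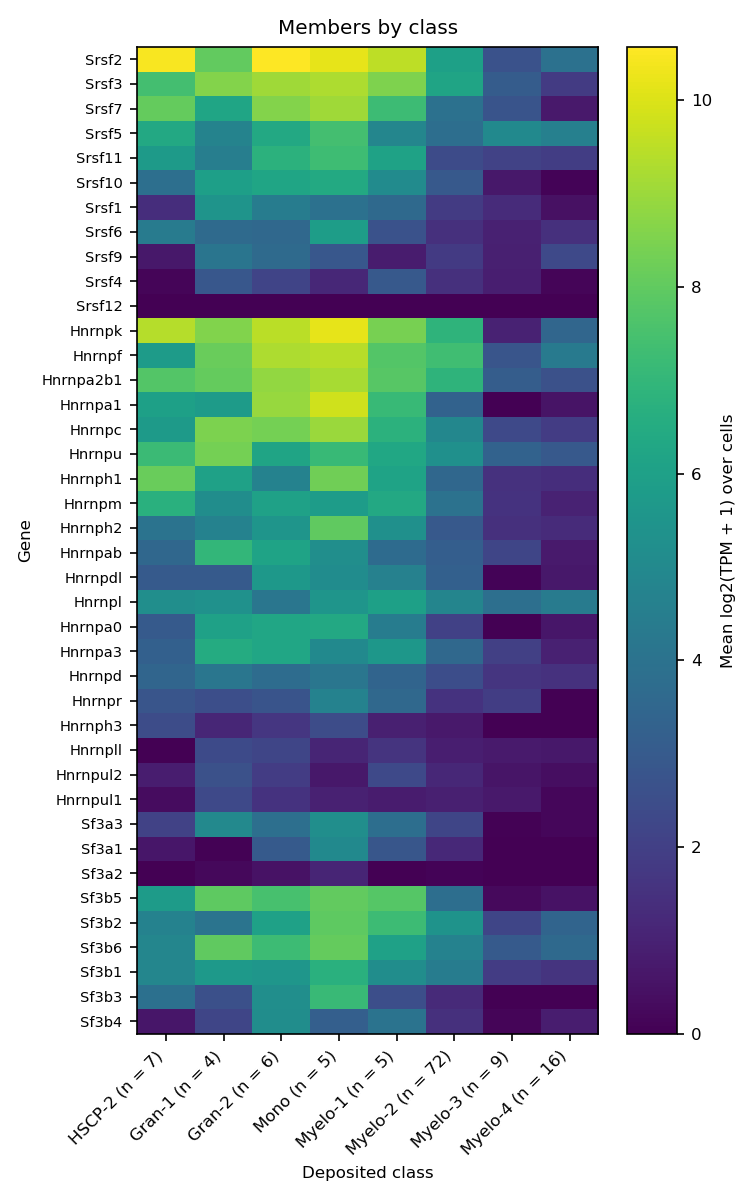
Rows are the 40 members and columns are the deposited classes with at least 4 cells; colour gives the mean over cells of log2(TPM + 1). Most rows are darkest in Myelo-3 and Myelo-4, and Srsf12 is at 0 throughout.

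The U2 subunits were spread unevenly. Sf3b1, the largest SF3b subunit and the one that clamps the branch point, was detected in 56 of 72 Myelo-2 cells (median 34.4 TPM, 0 to 870) and 5 of 16 Myelo-4 cells (median 0.09, 0 to 719). A single CD11b+ cell held 89.3% of the Myelo-4 sum. Sf3b2 was found in 63 of 72 Myelo-2 and 9 of 16 Myelo-4 cells, and Sf3b6, the small subunit that contacts the branch adenosine, in 56 of 72 and 11 of 16. Sf3b5 was detected in 41 of 72 Myelo-2 cells, 1 of 9 Myelo-3 and 1 of 16 Myelo-4 cells. Sf3b3 was detected in all 5 Mono cells (81.2 to 192 TPM), in 18 of 72 Myelo-2 cells, in 0 of 9 Myelo-3 and in 0 of 16 Myelo-4 cells, for which the exact interval reaches 20.6%. Sf3b4 was detected in 20 of 72 Myelo-2 and 4 of 16 Myelo-4 cells. In SF3a, Sf3a1 was found in 17 of 72 Myelo-2 cells and in no Myelo-3 or Myelo-4 cell, and Sf3a3 in 26 of 72 Myelo-2, 0 of 9 Myelo-3 and 2 of 16 Myelo-4 cells. Subunits of one complex thus differed in how many cells showed them, with Sf3b2, Sf3b6 and Sf3b1 the most often seen and Sf3a2 the least.

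Myelo-4 and Myelo-2 were compared within the Ly6g high gate, so that the gate is the same for both, over 13 and 27 cells. Myelo-4 cells there carried more late neutrophil RNA and fewer splicing factor and hnRNP transcripts than Myelo-2 cells. They detected a median of 9 members (4 to 17) against 19 (11 to 28), and of 1318 genes against 2030. The members made up 0.119% of TPM (0.0145 to 0.268) against 0.262% (0.130 to 0.564). Outside the granule lists the shares were 0.305% (0.0363 to 0.723) and 0.627% (0.333 to 1.32). The ranges overlapped in each of these measures. Of all 40 members, 36 were detected in a smaller share of Myelo-4 than of Myelo-2 cells, 2 in a larger share and 2 in the same share. Fewer genes of any kind were detected in Myelo-4 cells: of the 3105 genes that 25% or more of either class detected, 76.1% were found in a smaller share of Myelo-4 cells, beside 32 of the 34 members among them. The 2 in a larger share were Srsf5, in 53.8% against 48.1% of cells, and Srsf6, in 23.1% against 22.2%, which is less than 1 cell apart. Hnrnpl was detected in all cells of both classes, and Srsf12 in none. In Myelo-4 8 members were not detected at all, Srsf12 among them, against 1 in Myelo-2, with fewer cells in the former. Of the 39 members detected in any cell of these classes, 7 were undetected in Myelo-4, beside 3444 of 8898 genes. Among measured genes these were 4 of 34 members, beside 390 of 3105 genes. Members undetected in Myelo-4 were thus no more common than such genes in all.

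**Figure D3:**
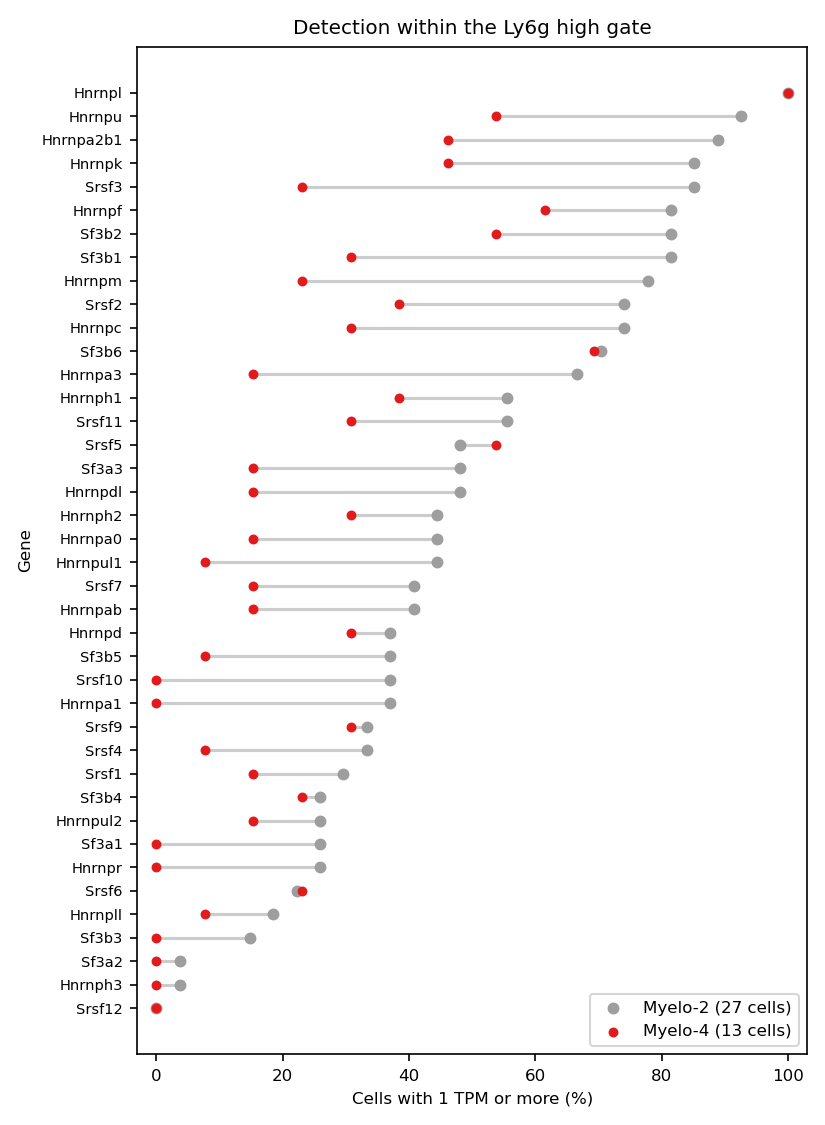
Each row is 1 member, with the percent of cells at 1 TPM or more among 27 Myelo-2 cells (grey) and 13 Myelo-4 cells (red) of the Ly6g high gate. For 36 of the 40 members the red point lies to the left of the grey one, and 76.1% of the 3105 genes that 25% or more of either class detected were likewise found in fewer Myelo-4 cells by share; Hnrnpl is at 100% in both classes and Srsf5 lies slightly to the right.

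For levels, 2 sets of cells were compared as the log2 ratio of their mean TPM after adding 1 TPM to each. A gene counted as measured where 25% or more of either set's cells detected it, a filter that a gene can pass through its higher set alone. Between Myelo-4 and Myelo-2 34 members were measured, with a median log2 ratio of -2.33, and it was -2.25 over the 39 members above 0 in any cell. The median over all 3105 measured genes was -0.75. At least 2-fold lower in Myelo-4 were 25 of the 34 members, beside 45.3% of all measured genes, and 1 member was at least 2-fold higher, beside 13.7%. The low tail held a larger share of the members than of all measured genes, and the high tail a smaller one. Genes undetected in Myelo-4 passed the filter through Myelo-2 alone, 4 of the 34 members and 390 of the 3105 genes. Their low ratios were largely fixed by the filter, so these shares describe filtered genes only. By family, 6 of 9 Srsf, 13 of 18 Hnrnp, 2 of 2 Sf3a and 4 of 5 Sf3b genes were at least 2-fold lower. Leaving out each of the 40 cells in turn gave medians from -2.40 to -2.12. The size depended on the settings: the median was -1.13 with a pseudocount of 10 TPM (all measured genes -0.49). With a filter at 50% of cells it was -1.01 (all measured genes -0.29), with 9 of 16 members lower, beside 33.3% of all genes.

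The lowest ratios belonged to Hnrnpa1, Srsf10 and Sf3a3, which all passed the filter through Myelo-2 cells alone. Hnrnpa1 was at or under 0.49 TPM in every Myelo-4 cell, against 0 to 815 TPM in Myelo-2, where 10 of 27 cells detected it. The means were 0.0715 and 58.8 TPM, a log2 ratio of -5.80. One Myelo-2 cell held 51.3% of the Myelo-2 sum, and without it that mean was 29.7 TPM. Srsf10 was at or under 0.66 TPM in every Myelo-4 cell and ranged from 0 to 570 TPM in Myelo-2, where 10 of 27 cells detected it. Its log2 ratio was -5.72, with a mean of 55.1 TPM in Myelo-2, or 35.3 without the highest cell. Sf3a3, which anchors SF3a to the U2 particle, reached at most 2.56 TPM in Myelo-4 and 393 TPM in Myelo-2, with a log2 ratio of -5.30. In all 3 genes the Myelo-2 class itself was mixed, because over 50% of its cells did not detect the gene.

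The most abundant members, and Sf3b1, are given next. Srsf3 ranged from 0 to 909 TPM in Myelo-2 (median 157, 23 of 27 cells) and from 0 to 235 TPM in Myelo-4 (median 0.15, 3 of 13 cells). Hnrnpa2b1 ranged from 0 to 847 TPM (median 57.1, 24 of 27 cells) in Myelo-2 and from 0 to 184 TPM (median 0.40, 6 of 13 cells) in Myelo-4. Sf3b1 ranged from 0 to 433 TPM (median 33.8, 22 of 27 cells) and from 0 to 54.6 TPM (median 0.07, 4 of 13 cells). In each of the 3 the ranges overlapped, with the Myelo-4 median under 1 TPM. Other high members were lower by less. Srsf2 had means of 184 TPM in Myelo-4 (5 of 13 cells) and 371 in Myelo-2 (20 of 27 cells). The means of Hnrnpf were 170 and 323 TPM, those of Hnrnpk 140 and 238 TPM, and those of Hnrnpc 63.4 and 128 TPM. The Hnrnpk mean in Myelo-4 was 61.7 TPM without its highest cell, at 1086 TPM. Hnrnpu was nearly level by its means, 108 and 131 TPM, but 62.3% of the Myelo-4 sum came from 1 cell, and the medians were 1.14 and 90.4 TPM. Srsf7 had means of 3.12 and 26.9 TPM.

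At the other end stood Srsf5, Hnrnpl and Srsf11. Srsf5, an SR protein first described as a growth-induced gene, ranged from 0 to 1550 TPM in Myelo-4 (median 8.78) and from 0 to 478 TPM in Myelo-2 (median 0.71). Its means were 205 and 71.6 TPM, a log2 ratio of 1.504, which made it the single member at least 2-fold higher. Without the highest cell of each class the means were 92.7 and 55.95 TPM and the log2 ratio was 0.72, under 2-fold. Srsf11 had means of 45.5 and 46.7 TPM, but 80.7% of the Myelo-4 sum came from 1 cell, and without the highest cell of each class the log2 ratio moved from -0.04 to -1.87. Hnrnpl is described below.

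The number of genes detected moved with the class, so cells of like number were set side by side, a choice made after the data were seen. With 1000 to 2000 genes detected there were 11 Myelo-4 and 13 Myelo-2 cells in the Ly6g high gate, with medians of 1432 and 1650 genes, so a gap remained. They detected 10 members (7 to 17) against 16 (11 to 25), or 7.36 and 9.83 per 1000 genes. The members' share of TPM was 0.126% against 0.197%, and outside the granule lists 0.305% against 0.521%. The median log2 ratio over 26 measured members was -1.33, against -0.15 over all measured genes. At least 2-fold lower were 15 of these members, beside 33.2% of all measured genes, and 4 were higher, beside 24.9%. With 1500 to 3000 genes, where only 3 Myelo-4 cells met 23 Myelo-2 cells, the median was -3.10 over 35 members against -0.92 over all measured genes. The members' median was below that of all genes in both windows, by different amounts.

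Other genes of RNA processing were taken from 6 lists with 111 genes in the table. Of these, 70 were measured between Myelo-4 and Myelo-2 in the Ly6g high gate, with a median log2 ratio of -1.81; 44 were at least 2-fold lower and 7 at least 2-fold higher. Among the U1, U2 and Sm particle genes 10 of 15 were lower and none higher. Snrpg, a ring subunit of the Sm core, averaged 0.14 TPM in Myelo-4 and 342 TPM in Myelo-2. Of 11 measured genes of the tri-snRNP and catalytic spliceosome, 7 were lower and 1 higher. Lsm8, a subunit of the ring on U6, averaged 3.17 against 196 TPM, while Slu7, a second-step factor, averaged 129 against 10.4 TPM and was the higher one. SR-related factors and SR kinases were divided, with 4 of 9 lower and 3 higher; the SR-like splicing factor Tra2b averaged 2.54 against 51.8 TPM. Of the other RNA-binding regulators 11 of 19 were lower and 2 higher, and the poly(C)-binding Pcbp2 averaged 27.9 against 242 TPM. For exon junction and export 6 of 8 genes were lower, with Eif4a3, the helicase core of the exon junction complex, at 16.4 against 146 TPM. Cleavage and polyadenylation had 6 of 8 lower and 1 higher. All 6 lists had medians below 0, from -3.13 to -0.88. The SR-related list, at -0.88, was near the median of all measured genes, and its 4 of 9 lower and 3 of 9 higher stand beside 45.3% and 13.7% of all genes.

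Genes of other kinds moved with the same contrast. All 18 measured mitosis genes were at least 2-fold lower in Myelo-4, with a median log2 ratio of -6.37. Their summed level had a median of 1.10 TPM (0.32 to 3.62) in Myelo-4 and 2013 TPM (3.01 to 6392) in Myelo-2. Of 20 DNA replication genes 9 were measured and all 9 were lower, with summed levels of 0.31 to 147 TPM against 0.88 to 4146 TPM. The late neutrophil list went the other way, with 6 of 10 measured genes at least 2-fold higher and summed levels of 699 to 50894 TPM against 53.7 to 3817 TPM. Specific granule genes had a median log2 ratio of 0.11. Markers of other cell types were divided. Of 7 B cell and 7 T and NK cell markers, 6 of each were at 0 in each class. Their summed levels were 0 to 0.50 and 0 to 485 TPM in Myelo-4 and 0 to 1.38 and 0 to 6.26 TPM in Myelo-2. Of 9 erythroid markers 7 were at 0 in Myelo-4 and 5 in Myelo-2. By contrast, 10 of 12 monocyte markers were above 0 in either class, and the 1 measured had a log2 ratio of 0.14. For basophil and mast cell markers 4 of 6 were above 0 in either class. The 2 measured had a median log2 ratio of 0.75, and 1 was at least 2-fold higher in Myelo-4, beside 13.7% of all measured genes. The part of cell division, of maturation, of other cell types and of the number of genes detected in the members' levels was not tested.

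The same classes in the CD11b+ gate were compared next, over 3 Myelo-4 and 14 Myelo-2 cells. This pair, like those with Myelo-1 and Myelo-3, was picked with the values already in view. The Myelo-4 cells detected 9, 12 and 18 members, and Myelo-2 cells a median of 23.5 (11 to 30). The members' share outside the granule lists was 0.557% (0.483 to 0.674) against 0.918% (0.499 to 1.52). Over 34 measured members the median log2 ratio was -2.28, against -0.41 over all measured genes. At least 2-fold lower were 24 members, beside 45.3% of all measured genes, and 5 were at least 2-fold higher, beside 32.3%. Single cells weighed more here than in the Ly6g high gate: of the summed Srsf2 in the 3 Myelo-4 cells, 98.6% came from 1 cell, and the mean was 1161 TPM with it and 24.5 TPM without. Srsf5 was detected in all 3 Myelo-4 cells, at 101 to 750 TPM, with a mean of 327 TPM against 128 TPM in Myelo-2. It was thus above Myelo-2 by its mean in both gates. Hnrnpa1 was detected in 1 of these 3 cells and in 9 of 14 Myelo-2 cells.

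Myelo-3 cells were few in each gate, and members stood below Myelo-2 in all 3. In the Ly6g high gate (3 against 27 cells) the median log2 ratio of 36 measured members was -2.90, with 26 lower, beside 55.3% of all measured genes, and 6 higher, beside 21.4%. In the Ly6g low gate (2 against 31 cells) it was -3.93, with 30 of 36 lower, beside 68.7%, and 4 higher, beside 16.3%. In the CD11b+ gate (4 against 14 cells) it was -3.53, with 24 of 35 lower, beside 55.4%, and 6 higher, beside 25.4%. The medians over all measured genes were -1.53, -3.54 and -1.83, so in the Ly6g low gate the members lay near all genes. Hnrnpk averaged 0.537, 0 and 2.64 TPM in Myelo-3 cells of the 3 gates, against 238, 349 and 493 TPM in Myelo-2. The direction was not shared by every high member in each gate: in CD11b+ Myelo-3 cells Srsf7 (3.97), Hnrnpu (2.13) and Srsf3 (0.56) were above Myelo-2, and in Ly6g high ones Hnrnpc (1.79) and Srsf5 (1.44). In CD11b+ Myelo-3 cells these means rested on few cells: Srsf7 was detected in 2 of 4. Myelo-1 cells of the Ly6g low gate, 4 against 31 cells, lay on the other side of Myelo-2. The median of 38 measured members was 0.70, against 0.58 over all measured genes, with 13 at least 2-fold higher, beside 38.7%, and 3 lower, beside 17.7%. Hnrnpa1 averaged 454 TPM in these Myelo-1 cells and 95.4 TPM in Myelo-2, whereas Srsf5 averaged 24.7 against 115 TPM. Here the 2 genes differed in sign, whereas in CD11b+ Myelo-3 cells both were below Myelo-2 (-1.71 for Srsf5, with Hnrnpa1 listed at 0).

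Between gates the median ratios of the members lay near those of all measured genes, but the tails differed, most in the comparisons with Ly6g high. Values for Myelo-2 cells alone follow in the next paragraphs. In Ly6g high over Ly6g low 36.1% of measured members were at least 2-fold lower, against 23.7% of all measured genes. In CD11b+ over Ly6g high 58.3% were at least 2-fold higher, against 44.5%. In CD11b+ over Ly6g low 23.7% were higher, against 30.3%. Ly6g high cells had a median member share of 0.243% (0.0145 to 1.75), Ly6g low cells 0.351% (0.0734 to 1.10) and CD11b+ cells 0.519% (0.0220 to 2.35). Outside the granule lists these were 0.544%, 0.753% and 0.938%. The gates also differed in genes detected per cell, as given above, and in class make-up. Myelo-4 cells numbered 13 in Ly6g high, 0 in Ly6g low and 3 in CD11b+, and HSCP-2 cells 2, 0 and 5. The 3 comparisons share gates, so they are not independent of one another.

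Of Ly6g high against Ly6g low, 36 members were measured, with a median log2 ratio of -0.33 against -0.29 over all measured genes. At least 2-fold lower were 13 members, beside 23.7% of all measured genes, and 0 were higher, beside 7.96%. Srsf7 ranged from 0 to 576 TPM in Ly6g high (median 0.205, 16 of 46 cells) and from 0 to 636 TPM in Ly6g low (median 105, 33 of 41 cells), with means of 42.3 and 141 TPM and a log2 ratio of -1.71. Hnrnpul2, a nuclear scaffold relative of Hnrnpu, averaged 2.41 and 10.99 TPM (-1.81), and Srsf9 averaged 6.28 and 22.4 TPM (-1.68). Sf3b5 averaged 56.6 and 159 TPM (-1.47), detected in 30.4% and 70.7% of cells. Highest were Hnrnpl at 57.4 and 37.5 TPM (0.60), Srsf1 at 0.32 and Srsf6 at 0.30, all under 2-fold, and Srsf1 turned to -0.14 once each gate's highest cell was dropped. Among the other RNA processing lists 22 of 87 measured genes were lower and 5 higher, with a median of -0.45. Within Myelo-2 cells alone, 4 members were lower, beside 19.8% of all measured genes, and 3 higher, beside 13.1%.

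Of CD11b+ against Ly6g low, 38 members were measured, with a median log2 ratio of 0.63 against 0.48 over all measured genes. At least 2-fold higher were 9 members, beside 30.3% of all measured genes, and 1 was lower, beside 7.83%. Among members with a mean of at least 10 TPM in either gate, the highest ratio was that of Srsf7, with 481 TPM in CD11b+ (0 to 3867, median 216) against 141 TPM (1.76), or 395 TPM in CD11b+ without its highest cell, followed by Srsf6 (46.7 against 13.9 TPM, 1.68) and Srsf2. Srsf2 ranged from 0 to 9377 TPM in CD11b+ (median 627) and from 0 to 1782 TPM in Ly6g low (median 261), with means of 1349 and 428 TPM (1.65) and near-equal detection, 87.5% and 87.8%. Hnrnpul2 (-1.03), Hnrnpdl (-0.99) and Sf3b4 (-0.77) were lowest. Sf3a1 (1.29) and Sf3b3 (1.44), both seen in under 50% of cells, were also at least 2-fold higher. Of the other lists 29 of 96 measured genes were higher and 3 lower.

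Of CD11b+ against Ly6g high, 36 members were measured, with a median log2 ratio of 1.08 against 0.83 over all measured genes. At least 2-fold higher were 21 members, beside 44.5% of all measured genes, and 0 were lower, beside 6.93%. The mean of Srsf7 was 481 TPM against 42.3 TPM (3.48). Hnrnpa1 ranged from 0 to 2501 TPM in CD11b+ (median 141, 26 of 40 cells) and from 0 to 815 TPM in Ly6g high (median 0, 13 of 46 cells), with means of 446 and 69.9 TPM (2.66). Hnrnpr averaged 27.1 against 4.41 TPM (2.38). Sf3b4 (-0.83), Hnrnpl (-0.61) and Hnrnpd (-0.36) were lowest. With Myelo-2 cells alone, 9 members were higher, beside 23.2% of all measured genes, and 3 lower, beside 19.8%, and Hnrnpr stood at -0.069. Of the other lists 51 of 95 measured genes were higher and 1 lower.

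Gran cells (Gran-1 and Gran-2, 8 cells) and Myelo-2 cells (14 cells) were compared within the CD11b+ gate. Gran cells detected 32.5 members (27 to 35) beside 4094 genes, and Myelo-2 cells 23.5 (11 to 30) beside 2259. The median log2 ratio over 38 measured members was 0.90, below the 1.26 of all measured genes. At least 2-fold higher were 15 members, beside 55.4% of all measured genes, and 3 were lower, beside 11.8%. The members' median thus lay below that of all measured genes, while granule transcripts took up 14.1% of TPM in Gran cells against 54.3% in Myelo-2. Gran cells detected more genes, and a gene can pass the filter through them alone. The median over all measured genes can be high for that reason, so its distance from the members' median is not a result about the members. With TPM rescaled without granule genes, 1 member was higher, beside 41.1% of all measured genes, and 7 lower, beside 22.6%. Few markers of other cell types were measured, and most of those were higher in Gran cells, beside 55.4% of all measured genes. At least 2-fold higher were 3 of 4 monocyte, 2 of 2 erythroid, 1 of 1 basophil and mast cell, 1 of 1 B cell and 2 of 2 progenitor markers. None was at least 2-fold lower. Of the megakaryocyte and the T and NK cell markers 0 were measured. The 1 above 0 in each of these lists had a log2 ratio below 0 (-2.24 and -0.65). Summed monocyte markers ranged from 2680 to 13200 TPM in Gran cells, with 4 of 12 at 0, and from 100.19 to 2234 TPM in Myelo-2, with 6 of 12 at 0. Their part in the members' levels was not tested. Srsf11 ranged from 0 to 700 TPM in Gran cells (median 172) and from 0 to 485 TPM in Myelo-2 (median 0), with a log2 ratio of 1.78. Hnrnph1 (1.64) and Hnrnpll (3.96) each rested on 1 Gran-1 cell, and without the highest cells their ratios were 0.39 and 1.10. The 3 lower members were Sf3b1 (44.8 against 137 TPM, -1.59), Hnrnpm (76.2 against 221 TPM, -1.52) and Sf3b2 (65.3 against 156 TPM, -1.24). These 3 were detected in all 8 Gran cells and in 11, 9 and 12 of the 14 Myelo-2 cells, so fewer Myelo-2 cells carried them at higher levels. By the mean of log2(TPM + 1), Hnrnpm and Sf3b1 turned to 1.01 and 0.36. The 4 other SF3b subunits were higher, from 1.02 (Sf3b5) to 1.47 (Sf3b3).

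HSCP-2 cells of the CD11b+ gate (5 cells) detected 24 members (13 to 32) beside 2919 genes, close to the number in Myelo-2, but at higher levels for some. The median log2 ratio over 34 measured members was 1.11 against 1.06 over all measured genes, and 0.60 without the filter. At least 2-fold higher were 19 members, beside 51.1% of all measured genes, and 5 were lower, beside 28.3%. With TPM rescaled without granule genes the members' median was 0.015. These values rest on single cells: leaving out 1 cell at a time moved the median between 0.22 and 1.24, and leaving out the highest cell of each set for each gene turned it to -0.26. Hnrnph1, which binds G runs near splice sites, ranged from 8.33 to 1381 TPM in the 5 HSCP-2 cells (median 601) and from 0 to 288 TPM in Myelo-2 (median 1.73), a log2 ratio of 3.83 and 4.11 without the highest cells. Sf3b3 averaged 345 TPM in HSCP-2 (3 of 5 cells) and 24.2 TPM in Myelo-2 (3.78). Hnrnpr averaged 67.6 and 6.21 TPM (3.25). Srsf9 (2.02 against 38.5 TPM, -3.71), Srsf4 (0.11 against 13.4 TPM, -3.70) and Sf3a1 (2.88 against 30.6 TPM, -3.02) were lowest. Mitosis genes were low here as well, with 13 of 14 measured ones at least 2-fold lower in HSCP-2. Markers of other cell types were divided. At least 2-fold higher were 2 of 2 measured basophil and mast cell markers, 1 of 1 megakaryocyte, 2 of 3 erythroid and 4 of 4 progenitor markers. These few genes stand beside 51.1% of all measured genes. Of 2 measured monocyte markers 1 was higher and 1 lower. Without the filter the median log2 ratio of the 5 erythroid markers above 0 was -0.82. Summed basophil and mast cell markers ranged from 0 to 4766 TPM in HSCP-2 (Mcpt8 and Fcer1a at 0) and reached 0.20 TPM in Myelo-2, and summed erythroid markers ranged from 0 to 3514 TPM (6 of 9 at 0, Klf1 and Epor among them) against 0 to 233 TPM. The part of these cell types in the members' levels was not tested. The member share in these 5 cells was 1.59% (0.432 to 2.35), against 0.445% in Myelo-2. Both are shares of all TPM, granule transcripts included.

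Hnrnpl, which binds CA repeats and represses or activates nearby exons, was the member detected in the most cells. It was found in all 46 Ly6g high cells (2.11 to 216 TPM, median 38.1), all 41 Ly6g low cells (1.63 to 102 TPM, median 37.2) and 36 of 40 CD11b+ cells (0 to 300 TPM, median 17.5). Its mean over all cells was 44.7 TPM, the 23rd highest of the 40 members, and 108 cells held it at 10 TPM or more. Across classes its median lay between 16.96 TPM in Myelo-3 (0 to 300) and 66.7 TPM in HSCP-2 (0 to 134). In the Ly6g high gate Myelo-4 cells ranged from 2.88 to 143 TPM (median 31.8) and Myelo-2 cells from 2.11 to 216 TPM (median 30.3), with means of 54.5 and 53.7 TPM. The ranges overlapped, with a log2 ratio of 0.02. In the CD11b+ gate the 3 Myelo-4 cells held 0 to 14.2 TPM against 5.37 to 44.8 TPM in 14 Myelo-2 cells, so the level did not hold in every gate.

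Hnrnpl also followed the number of genes detected less than most members. Its Spearman's rho with genes detected over the 127 cells was 0.18, where the 39 members above 0 ranged from 0.15 (Srsf5) to 0.70 (Hnrnpa1) with a median of 0.45. Of all genes, 86 were detected in at least as many cells as Hnrnpl, with a median mean level of 1083 TPM, and 9 of these had a mean at or under that of Hnrnpl. Detection in so many cells at such a level was rare among all genes. Both numbers count Hnrnpl itself, which was singled out after its wide detection was seen, so this is a description only.

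**Figure D4:**
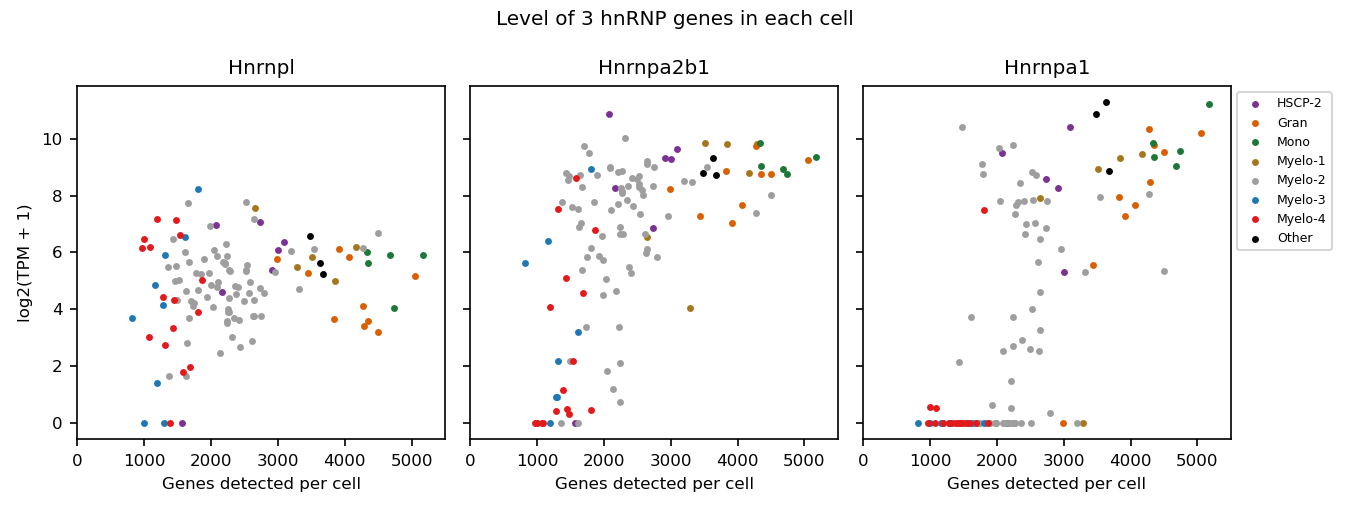
Each point is 1 cell, with genes detected on the x axis and log2(TPM + 1) on the y axis for Hnrnpl, Hnrnpa2b1 and Hnrnpa1, coloured by deposited class. Hnrnpl is above 0 in nearly all cells at every number of genes detected, Hnrnpa2b1 drops in the cells with the fewest genes, and Hnrnpa1 is at 0 in all Myelo-3 cells and detected in 1 Myelo-4 cell.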

How the data were processed

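Single-cell RNA was captured on the Fluidigm C1, amplified with SMARTer and made into Nextera XT libraries, per the labels' protocols. The authors deposited log2(TPM + 1) for each gene and cell, from Bowtie2 and RSEM on mm9, per the submitters' processing notes, whose versions no source used here gives. The authors' second deposited file names each cell's class, by a method that is likewise not stated there. Values were turned back to TPM, and each cell summed to between 999633 and 1005383. Groups are the labels' gates. All 127 columns were matched to cells, and no cell was left out, clustered or passed through a doublet caller.

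Detection is 1 TPM or more. A measured gene was detected in at least 25% of either set, and ratios are log2(mean TPM + 1) differences with a pseudocount of 1 TPM, which understate changes of low genes; the calling threshold is 2-fold. A gate is 1 sample, so no test was made. Shares of cells carry exact Clopper-Pearson 95% intervals, which cover counting error only. The read depth behind TPM is unknown. Genes were named by rule: the 10 highest members, the 3 highest and 3 lowest ratios in each planned comparison at a mean of at least 10 TPM, the Sf3a and Sf3b genes, and up to 3 genes of each other list; members outside it, Hnrnpl among them where the rule did not name it, were chosen after their values were seen. The members and lists were chosen with earlier results of these data known. Other lists were 6 of RNA processing (111 genes in the table), granule and late neutrophil genes, DNA replication, mitosis and markers of other cell types. Promoters came from RefSeq tables of GRCm38.p6, another build than the files', and exon overlaps from GENCODE M21. Alternatives changed the pseudocount, filter, mean, scaling and cells used. The work was done in Python 3.11.15 (numpy 2.4.6, pandas 2.3.3, scipy 1.17.1, matplotlib 3.10.9). The ratio step was checked on resampled Ly6g low cells with planted fold changes. That check did not cover sets that differ in genes detected.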

Additional observations from a re-analysis of the deposited data

How the results depend on the processing

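No paired analysis was possible because the cell numbers that gates share only name cells and do not pair them, and the results come from no test. Of the summary results under all alternatives, 139 moved by less than the set limits, 64 moved by more and 1 reversed; the cause was not tested. Cells with 1000 to 2000 genes were an alternative chosen after seeing the data. Not run were Gran cells at 1500 to 3000 genes (1 cell) and 1000 to 2000 genes (0 cells) and HSCP-2 at 1000 to 2000 genes (1 cell). TPM without read depth limits what a zero can show. The counts of members that follow are given without the share over all measured genes, except where that share stands above. The pseudocount, filter, mean, scaling and cells used change the values of other genes too, by amounts that differ between genes. These counts therefore describe the settings and are not a result about the members.

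For Ly6g high over Ly6g low, members at least 2-fold lower numbered 4 with a pseudocount of 10 TPM, 24 by the mean of log2(TPM + 1) (median -1.24), 8 without the cells with the fewest genes, and 4 each at 1500 to 3000 genes, in Myelo-2 and at 1000 to 2000 genes. Higher ones numbered 1 with TPM rescaled without granule genes, and 4, 3 and 5 in those last 3 settings. For CD11b+ over Ly6g low, lower members numbered 2 (pseudocount 0.1), 0 (pseudocount 10), 0 (50% filter), 4 (rescaled), 2 (without the fewest genes), 2 (1500 to 3000), 4 (without the highest cells), 3 (Myelo classes), 3 (Myelo-2) and 2 (1000 to 2000), and higher ones 2 by the mean of log2. For CD11b+ over Ly6g high, rescaling gave 2 lower and 8 higher, 1500 to 3000 genes a median of 0.46 with 2 lower and 8 higher, the Myelo classes 11 higher, Myelo-2 3 lower and 9 higher, and 1000 to 2000 genes 2 lower.

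For Myelo-4 over Myelo-2 in Ly6g high, the median was -1.13 (pseudocount 10), -1.01 with 9 lower (50% filter), -1.47 with 0 higher (mean of log2), -3.10 with 3 higher (1500 to 3000 genes, 3 against 23 cells) and -1.33 with 15 lower and 4 higher (1000 to 2000 genes); higher members numbered 2 without the filter, 2 rescaled and 0 without the highest cells. For Gran over Myelo-2, 9 were higher with a pseudocount of 10; the mean of log2 gave 1.49 with 0 lower and 30 higher, and rescaling 0.014 with 7 lower and 1 higher. For HSCP-2 over Myelo-2, the 50% filter gave 3 lower, rescaling 0.015 with 13 lower and 9 higher, 1500 to 3000 genes 0.30 with 12 lower, and leaving out the highest cells reversed the median to -0.26 with 12 lower and 11 higher.

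Outside granule genes the member share was 0.544% in Ly6g high, 0.753% in Ly6g low, 0.740% in Myelo-2 and 0.374% in Myelo-4, and counting any value above 0 TPM gave 17 members in Myelo-4. Of the named genes' values 677 were within the limits, 244 moved and 7 reversed: Hnrnpul2 in CD11b+ over Ly6g low (0.30, 1000 to 2000 genes), Hnrnpc in CD11b+ over Ly6g high (-0.028, Myelo classes; -0.65, 1000 to 2000 genes), Hnrnpr there (-0.069, Myelo-2), and by the mean of log2 Hnrnpm (1.01) and Sf3b1 (0.36) in Gran and Hnrnpf in HSCP-2 (-0.60).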
